A study of Bombus terrestris with 20 samples.

Results

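A set of 129 genes had less messenger RNA in ovary-active workers of the bumblebee Bombus terrestris than in workers with inactive ovaries, both in fat body and in ovary. The 129 were chosen by a rule on the measured values from 9564 genes measured in both tissues. In each tissue the lowest value of the 3 ovary-inactive libraries had to lie above the highest value of the 3 ovary-active libraries, and the mean over ovary-inactive libraries had to be at least 1.5 times the mean over ovary-active libraries. The fat body mean over the 6 libraries had to be at least 100 normalized counts, and the ovary ratio of the means had to stay under 4. The fall in both tissues is therefore a property of the rule and not a finding. Its values, and the fits made to them below, are given as a description and not as a test of the set.

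Brain, fat body and ovary were sequenced from workers with active or inactive ovaries at dissection, taken from colonies with a queen in which worker egg laying had begun. Ovary-active workers (OA) had ovary scores of 4 to 6, ovary-inactive workers (OI) had scores of 0 or 1, and workers of both phenotypes were 20 to 35 days old, with no other treatment or genetic difference named. Each phenotype and tissue had 3 libraries, each made from the tissue of 7 workers from several colonies, except 1 brain pool of ovary-inactive workers that joined 2 pools. A further ovary-inactive brain pool came from colonies obtained later, and the sources used here do not say which replicate number either of these brain pools carries. Worker-laid eggs of at most 1 h of age were sequenced as 2 pools of 24 eggs. Replicates are thus pools, and every p-value below measures the spread between pools. The study describes the fat body and ovary pools with identical worker numbers, colony numbers, ages and pairing. These tissues thus appear to come from the same bees, and a fall in both is not taken as separate samplings. When OA and OI workers were paired by age, the partners seldom shared a colony. Phenotype can therefore be mixed with colony, to an extent not known here, and the part of colony in the differences was not tested. Normalized counts are relative to the other RNA of a library. In bulk tissue, fewer cells of a type, less RNA per cell and more RNA of other genes cannot be told apart.

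The fat body is the insect organ of nutrient storage and the main source of yolk protein, and the ovary takes up that yolk into growing oocytes. An inactive worker ovary is thin and holds few developing eggs, whereas an active ovary contains nurse cells and oocytes that produce large amounts of RNA and protein. The named members treated here include regulators of transcription and chromatin, RNA-binding proteins and proteins of the cytoskeleton. Normalized counts are the unit throughout for tissues: they are the estimated reads of a gene after division by the scaling factors of its tissue, so levels of one gene can be compared between libraries of one tissue, and levels of different genes or tissues cannot be compared per molecule. Changes are also given as log2 fold changes of OA over OI on the log2(normalized count + 1) scale, where a negative value means lower in ovary-active workers.

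Depth, as the sum of normalized counts divided by the value of 1 read, was about 23118200 to 34419600 reads per tissue library. The normalized counts themselves summed to about 23371300 to 32308700, and estimated counts summed to about 50166000 and 52324100 in the eggs. The labelled tissues were checked by product names among the 2156 of 9564 genes that had one in the sources used here. The 5 genes of the fat body list, matched by letters of their names, summed to 8266 to 9085 normalized counts in OA fat body. In OI fat body they summed to 8873 to 11424. In the separately normalized ovary table the same 5 summed to 13160 to 15735 in OA and 10053 to 11828 in OI ovary. This list thus did not set the fat body apart. It took in transferrin receptor protein 1 and melanotransferrin by name, so nothing more is read from these sums. Other lists, picked after their values were seen, differed more between the tables. The 19 named lipid metabolism genes summed to 369147 to 478262 in fat body and 22834 to 34059 in ovary. The 3 named germline genes summed to 2463 to 2941 in fat body and 7496 to 14230 in ovary. Muscle genes, of a tissue that borders the fat body, numbered 12, of which 3 were lower with no overlap between phenotypes and 0 higher in OA fat body, where 14.6% of all genes were lower with no overlap. Their sum was 23482 to 28917 normalized counts in OA fat body and 26761 to 35695 in OI fat body, and their part in the values below was not tested. Nerve genes numbered 13, with 4 lower and 0 higher in fat body, and they summed to 5535 to 6880 normalized counts in OA and 7249 to 7965 in OI fat body, and their part was not tested either. In the ovary, where 32.6% of all genes were lower with no overlap, 7 of 12 muscle genes were lower and 2 higher, and they summed to 54017 to 63527 normalized counts in OA and 63196 to 88153 in OI ovary. There 7 of 13 nerve genes were lower and 3 higher, and they summed to 15648 to 18486 in OA and 30069 to 34487 in OI ovary. Both lists were matched by letters of names, so their genes need not be specific to muscle or nerve. Each held 1 member, chosen for its fall in both tissues. These were titin homolog in the muscle list and CUGBP Elav-like family member 2 in the nerve list.

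Fat body was the narrower gate of the rule. Of 324 genes lowered there at a mean of at least 100, 168 (51.9%) were also lowered in the ovary, where 20.5% of all genes at that fat body level met the same ovary criteria. Because the rule used both contrasts, nothing is read from that difference. The ceiling removed 39 of the 168, which left the 129 (39.8% of the 324). Among all genes in each table, 5.54% met the criteria in fat body and 24.1% in ovary.

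Within the set the ovary difference was the larger one. The ratio of the OI mean to the OA mean ran between 1.503 and 12.6 in fat body, with a median of 1.67, and between 1.52 and 3.96 in ovary, with a median of 2.26. It was larger in ovary than in fat body for 115 of 129 genes (89.1%). In fat body 13 genes reached a ratio of 2, in ovary 88 did, and only 8 did in both. Among all 7341 genes with a fat body mean of at least 100, 74 did in fat body and 825 in ovary. Ratios of 2 were thus more common in ovary beyond the set too, and the larger ovary difference is not read as particular to it. Across the 129 genes the log2 ratios of the 2 tissues had a Pearson correlation of 0.03 and a Spearman correlation of 0.04, over ranges that the rule itself cut in both tissues, so nothing is read from these values. The median log2 fold change was −0.73 in fat body and −1.26 in ovary, beside 0.00 and 0.02 over all genes tested.

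**Figure D1:**
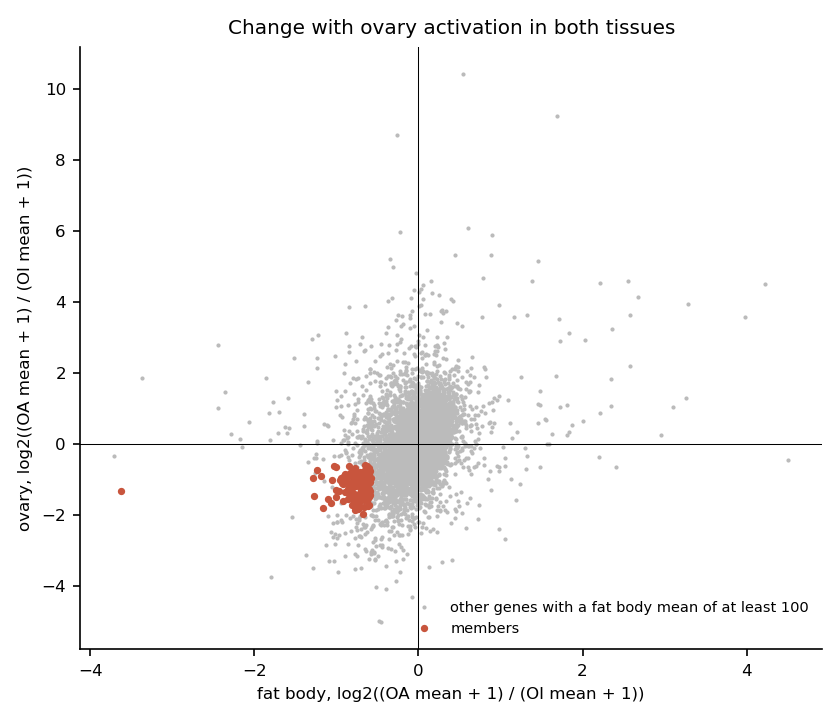
Each point is 1 gene with a fat body mean of at least 100 normalized counts, with its log2 change in fat body on the x axis and in ovary on the y axis (OA mean over OI mean, each plus 1). The 129 members (red) fill a block bounded by the thresholds of the rule at the right, top and bottom, and a single member, LOC100650745, lies far to the left with a fat body ratio of 12.6.

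The values at the edges of the rule show how near its limits some genes stood. In fat body the ratios nearest to 1.5 were 1.503, 1.508 and 1.508 inside (LOC100645631, LOC100649677 and LOC100642851) and 1.499, 1.496 and 1.495 outside (LOC100645342, LOC100646174 and LOC100650104). In ovary they were 1.52, 1.53 and 1.54 inside (groucho-1, LOC100642565 and LOC100645859) and 1.49, 1.47 and 1.42 outside (LOC100647745, LOC100643622 and LOC100652068). At the ceiling of 4 the ovary ratios were 3.96, 3.65 and 3.63 inside (zinc finger protein 1, LOC100645606 and LOC100645335) and 4.03, 4.06 and 4.09 outside (LOC100651145, insulin receptor substrate 1 and LOC100650043). At the fat body mean of 100 the nearest genes were at 105, 107 and 112 inside (LOC100648761, LOC100645631 and LOC100645859) and 95.7, 86.4 and 77.4 outside (homeobox protein homothorax, LOC100646160 and LOC100650924). Membership is thus a matter of small differences for part of the set.

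Product names were at hand for 30 of the 129 genes, and 7 of those say only that the protein is uncharacterized. The remaining 23 are described by role below, and they are not a sample of the whole set because names were held here only for genes with low symbol numbers. The list of transcription factors drawn up by product name held 2 members among 57 genes (3.51%), and that of extracellular matrix and adhesion 1 among 24 (4.17%), where 1.39% of all genes with a name were members. The first list matched letters of names. It left out the members Krueppel-like factor 6 and Sex combs reduced and took in lipid storage droplets surface-binding protein 2. Nothing is therefore read from its share. In all, 124 of the 129 matched a RefSeq gene of the assembly iyBomTerr1.2, which served for gene order. Only protein-coding genes were kept for this match, so the type of the matched genes is not a result. Genes of other types can lie between neighbours in this order. In that gene order 3 pairs of members are direct neighbours, namely LOC100642196 (split ends) with LOC100652108, LOC100644762 with LOC100644889, and LOC100645196 with LOC100645325.

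By a grouping made by hand after the names were seen, 9 of the 23 named genes were regulators of transcription and chromatin, with OI over OA ratios of 1.54 to 2.01 in fat body and 1.52 to 3.96 in ovary. Forkhead box protein O (FOXO, LOC100643217), the transcription factor that insulin signalling keeps out of the nucleus, had 1055, 972 and 1285 normalized counts in OA fat body, against 1892, 1997 and 1638 in OI fat body. In ovary it had 624, 825 and 565 in OA, against 1371, 1109.7 and 1270.0 in OI. Its lowest OI library lay above its highest OA library by a clear step in both tissues, and its log2 fold changes were −0.74 (SE 0.12) in fat body and −0.91 (SE 0.19) in ovary.

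The other genes that connect with nutrient signalling can be set beside it. The list of insulin and nutrient signalling genes with a name held 16 genes, 4 of which are integrator or elongator complex subunits that matched by the letters of their names. Of these, FOXO alone belonged to the set. By limma, a linear model across all genes, at an adjusted p under 0.05, 2 of the 16 were lower and 1 higher in OA fat body, where 1.97% of all genes tested were called lower and 0.96% higher. In ovary 8 of the 16 were lower and 2 higher, where 26.7% of genes were lower and 27.3% higher. The 2 higher were 3-phosphoinositide-dependent protein kinase 1 (log2 0.74, SE 0.14) and eukaryotic translation initiation factor 4E-binding protein 2 (log2 1.01, SE 0.21). FOXO was chosen for its fall in both tissues, and insulin receptor substrate 1 met the rule but for the ceiling. Nothing is therefore read from these counts. Insulin receptor substrate 1 (LOC100644779), the adaptor that relays the receptor's signal, was the other gene called lower in fat body. It fell in OA fat body to a mean of 680 normalized counts, against 1256 in OI (log2 −0.88, SE 0.14). In OA ovary its mean was 834, against 3387 in OI (log2 −2.13, SE 0.34), which put it just past the ceiling.

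AT-rich interactive domain-containing protein 2 (ARID2, LOC100643146), a subunit of a chromatin-remodelling complex, had the largest fat body ratio of the group. It had 763, 738 and 931 normalized counts in OA fat body and 1729, 1775 and 1397 in OI fat body. In ovary it had 2553, 3395 and 2413 in OA and 8094, 5662 and 6993 in OI. No OI library came near the OA range in either tissue, and the log2 fold changes were −1.01 (SE 0.13) and −1.31 (SE 0.18) in fat body and ovary.

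Zinc finger protein 1 (LOC100642685), a presumed DNA-binding protein, had the largest ovary ratio of all 129 genes. In OA ovary it had 280.1, 221 and 121 normalized counts, against 723, 721 and 1022 in OI ovary. The third OA ovary was the lowest and the third OI ovary the highest. In fat body the values were closer together, with 762, 603 and 888 in OA and 1127, 1282 and 1200.1 in OI, and the log2 fold changes were −0.69 (SE 0.14) in fat body and −2.04 (SE 0.33) in ovary.

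Split ends (LOC100642196), which belongs to a family of large RNA-binding transcriptional corepressors, had 1915, 2057 and 1282 normalized counts in OA ovary and 5372, 4762 and 5648 in OI ovary. In fat body it had 1355, 1256 and 1645 in OA and 1874, 2626 and 2089 in OI. The ovary groups stood far apart and the fat body groups lay closer together. Nipped-B-like protein (LOC100643330), which loads cohesin onto chromosomes, had 175, 188 and 231 normalized counts in OA fat body and 312, 399 and 354 in OI fat body, with log2 fold changes of −0.84 (SE 0.15) there and −1.39 (SE 0.14) in ovary. Enhancer of polycomb homolog 1 (LOC100644499), a subunit of a histone acetyltransferase complex, had 194, 198 and 263 normalized counts in OA fat body and 281, 419 and 365 in OI fat body. Its highest OA value and lowest OI value differed little in fat body, whereas in ovary its log2 fold change was −1.35 (SE 0.22).

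The remaining 3 of the group were Krueppel-like factor 6, groucho-1 and Sex combs reduced. Krueppel-like factor 6 (LOC100643418), a zinc finger transcription factor, had 152, 153 and 166 normalized counts in OA ovary, against 357, 369 and 331 in OI ovary, with little spread within either phenotype. Groucho-1 (LOC100643198), a corepressor that acts with many DNA-binding proteins, had 864, 788 and 636 normalized counts in OA ovary and 1318, 884 and 1271 in OI ovary. Its second OI ovary lay close to the first OA ovary, so the separation rests on a narrow gap. Sex combs reduced (LOC100643224), a homeotic gene that specifies segments of the head and first thoracic segment in Drosophila, was among the less abundant members, with 81.7, 76.0 and 114 normalized counts in OA fat body and 179, 116 and 122 in OI fat body, and here the gap between phenotypes was small.

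RNA-binding proteins were 4 of the 23, with ratios of 1.56 to 1.66 in fat body and 1.71 to 2.89 in ovary. RNA-binding protein 38 (LOC100643291), whose mammalian relative binds the transcript of a cyclin-dependent kinase inhibitor, had 746, 793 and 813 normalized counts in OA fat body and 1233, 1591 and 1078 in OI fat body. In ovary it had 413, 492 and 215 in OA and 797, 806 and 653 in OI. The OA fat bodies were tightly grouped below all OI fat bodies. PRRC2C (LOC100642991), a large protein of cytoplasmic RNA granules in mammals, had 2675, 2709.8 and 1842 normalized counts in OA ovary and 5749.5, 7698 and 7409 in OI ovary, but in fat body the third OA library, at 2129, was close to its first OI library, at 2232. RNA binding protein fox-1 homolog 2 (LOC100644512), a splicing regulator, was similar in having 283, 220.5 and 339 normalized counts in OA fat body and 351, 499.6 and 479.9 in OI fat body. CUGBP Elav-like family member 2 (LOC100644765), which binds RNA in splicing and decay, had log2 fold changes of −0.63 (SE 0.14) in fat body and −0.78 (SE 0.17) in ovary.

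Proteins of the cytoskeleton and of cell adhesion numbered 4, with ratios of 1.65 to 2.08 in fat body and 1.82 to 3.49 in ovary. Tensin-1 (LOC100644032), which ties integrin adhesions to actin, was the most abundant of them in fat body, with 5217, 4344 and 5603 normalized counts in OA and 10113, 8159 and 8132 in OI. Myosin-IB (LOC100642719), a single-headed motor that joins actin to membranes, had 2720.2, 2540.4 and 2390.0 normalized counts in OA ovary and 11115, 5850.1 and 9716 in OI ovary. Its OA ovaries were nearly equal and its OI ovaries varied widely, all of them higher. LIM domain only protein 7 (LOC100644874), a protein of cell junctions in mammals, had 3329, 3014 and 2171 normalized counts in OA ovary and 11643, 6819 and 11218 in OI ovary. Outspread (LOC100643727) had 85.8, 76.2 and 108 normalized counts in OA fat body and 121, 248 and 194 in OI fat body, the lowest levels of this group.

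The remaining 6 named genes had different roles. Cyclin-dependent kinase inhibitor 1 (LOC100644594), which stops the cell cycle by binding cyclin-kinase complexes, had 263, 278 and 274 normalized counts in OA fat body and 586, 563 and 395 in OI fat body. In ovary it had 1545, 1638 and 945 in OA and 5008, 3499.5 and 4062 in OI. The OA fat bodies were almost identical, all OI libraries were well above the OA libraries in both tissues, and the log2 fold changes were −0.90 (SE 0.16) and −1.63 (SE 0.24) in fat body and ovary.

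Very low-density lipoprotein receptor (LOC100643157), from the family of endocytic receptors that take up lipoproteins and yolk, was the fourth most abundant member in fat body. It had 7521, 6332 and 8050.5 normalized counts in OA fat body and 11928, 11094 and 11057 in OI fat body. In ovary it had 276, 203 and 72.1 in OA and 438, 453 and 354 in OI. The third OA ovary was far below the other OA ovaries, and the ovary log2 fold change carried a larger error, at −1.37 (SE 0.46), than the fat body one, at −0.64 (SE 0.10). Among the 19 named genes of lipid metabolism it was the only one that limma called in fat body, and it was chosen for this fall. There 1.97% of all genes were called lower and 0.96% higher. In ovary 4 of the 19 were called lower and 10 higher, where 26.7% and 27.3% of all genes were.

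Yippee-like 1 (LOC100642754), a small zinc-binding protein, had 1152, 1253 and 1223 normalized counts in OA fat body and 3303, 1964 and 1392 in OI fat body, so that the OI fat bodies spread widely above 3 nearly equal OA fat bodies. LON peptidase N-terminal domain and RING finger protein 3 (LOC100644521), which carries the RING domain of ubiquitin ligases, had 206, 290.1 and 255 normalized counts in OA fat body and 423, 422 and 422 in OI fat body, with OI values that hardly differed. Titin homolog (LOC100644154) had log2 fold changes of −0.64 (SE 0.11) in fat body and −1.53 (SE 0.18) in ovary, and it is the gene of the muscle list that belongs to the set. Leucine-rich repeat extensin-like protein 5 (LOC100643338) had −0.79 (SE 0.14) in fat body and −0.70 (SE 0.25) in ovary on the same scale.

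**Figure D2:**
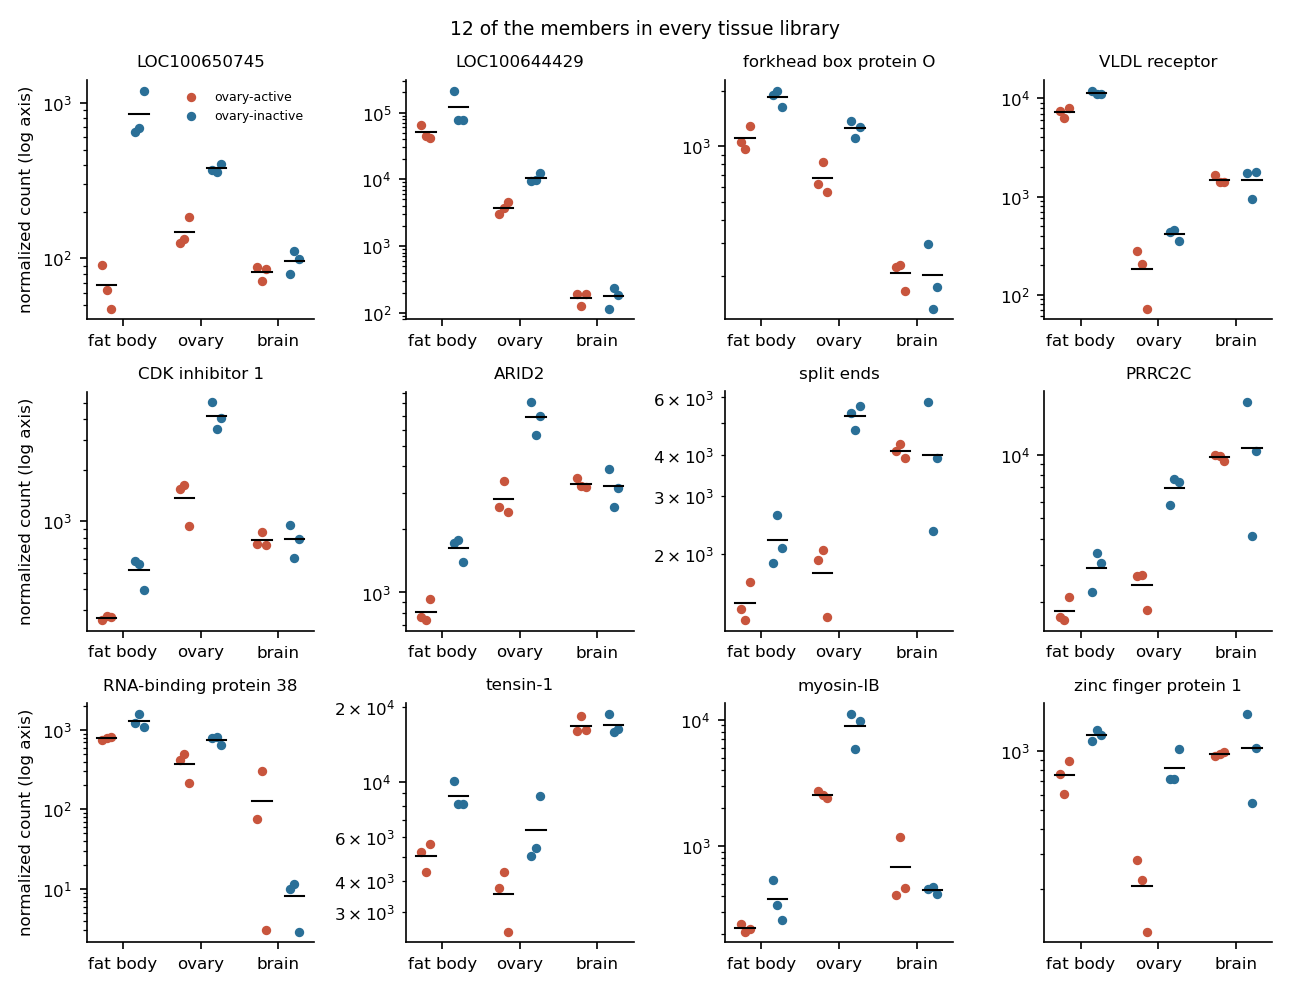
Normalized counts (log axis) of 12 members in each library of fat body, ovary and brain, with ovary-active libraries in red to the left of ovary-inactive libraries in blue; black bars are means of 3. In fat body and ovary the colours do not overlap, as the rule requires, and in brain they overlap in all 12.

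The genes with the largest falls in fat body mostly have no product name. LOC100650745 stood apart, with 90.8, 62.9 and 47.7 normalized counts in OA fat body, against 650.0, 690.4 and 1189 in OI fat body. In ovary it had 126, 134 and 186 in OA and 371, 359.7 and 404 in OI. Its ratio was 12.6 in fat body and 2.55 in ovary, which makes it 1 of the 14 members with the larger ratio in fat body. LOC100644429, the most abundant member in fat body, had 65043, 44865 and 41648 normalized counts in OA fat body and 211070.0, 77203 and 78148 in OI fat body. The first OI fat body was far above the other OI fat bodies, which in turn were above all OA fat bodies.

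The next largest fat body ratios were those of LOC100644506 (2.45), LOC100651196 (2.35), LOC100651433 (2.27), LOC100644350 (2.25), LOC100644998 (2.15) and LOC100648479 (2.09). LOC100651196 was also the third most abundant member in fat body, with 8978, 11007 and 14388 normalized counts in OA and 30379, 25765 and 24677 in OI. LOC100644998 had the tightest OA fat bodies of these, at 685, 638 and 659.5 normalized counts, against 1299.9, 1635 and 1332 in OI fat body. LOC100644506 had 520.3, 338 and 66.5 normalized counts in OA ovary and 596, 652 and 552 in OI ovary, and its first OA ovary was close to the OI range while the third was far below it.

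Among genes with the largest ovary ratios, LOC100645606 had 752, 525 and 474 normalized counts in OA ovary and 1522, 1967 and 2899 in OI ovary. LOC100645335 had 117, 275 and 91.3 in OA ovary and 776, 425 and 555 in OI ovary. In both genes the OI ovaries differed among themselves by more than the narrowest gap between the phenotypes. LOC100649208 had an ovary ratio of 3.56, and LOC100649911 had one of 3.57 at very low ovary levels of 3.002, 3.18 and 1.39 normalized counts in OA and 10.5, 8.47 and 8.09 in OI, under the mean of 10 needed for a fit. In fat body this last gene was well measured, at 855, 887 and 912 in OA and 2008, 2148 and 1164 in OI.

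The other abundant members of the fat body were LOC100644923, LOC100650798, LOC100651517 and LOC100649031. LOC100644923 had 15354, 14234 and 18947 normalized counts in OA fat body and 38001, 25996 and 21383 in OI fat body. LOC100650798 had 5055, 4519.9 and 5126 in OA fat body and 7404, 9211 and 7935 in OI fat body. Abundance differed greatly over the set, with fat body means over 6 libraries of 105 to 86330 and a median of 785, and ovary means of 5.77 to 23610 and a median of 1937. Only 40 of the 129 genes had a higher mean value in the fat body table than in the ovary table.

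Summed over all members, the set took 0.688%, 0.605% and 0.684% of the normalized counts of OA fat bodies, against 1.65%, 1.12% and 1.07% of those of OI fat bodies. In ovary it took 0.674%, 0.706% and 0.501% in OA, against 1.93%, 1.61% and 1.96% in OI. These sums lean on the few most abundant genes, so the median over members of the log2 level relative to each gene's own mean is the more even summary. It was −0.42, −0.51 and −0.19 in OA fat bodies, against 0.45, 0.42 and 0.28 in OI fat bodies. In ovary it was −0.53, −0.46 and −0.76 in OA, against 0.66, 0.49 and 0.70 in OI.

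Single libraries had a consistent place within their phenotype. The third OA fat body was the highest of the OA fat bodies in 96 of 129 genes (74.4%, against 35.02% of all genes), and the third OI fat body was the lowest of the OI fat bodies in 65 (50.4%, against 34.3%). In ovary the third OA library was the lowest of its phenotype in 83 genes (64.3%, against 40.02% of all genes), and the second OI library in 84 (65.1%, against 35.5%). Many members thus had the same order of libraries within a phenotype, in values that the rule used. The rule singles out no library within a phenotype, and how far it shaped this order was not tested. Genes of a library also share its depth and RNA makeup and are not independent, so nothing is read from these counts.

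Ribosomal protein genes were followed as a measure of the overall makeup of the RNA. Of 22 with a name, 0 were lower and 7 higher with no overlap in OA fat body, where 14.8% of all genes were higher, and 0 were lower and 9 higher in OA ovary, where 32.3% were. By limma 1 was called higher in fat body, where 0.96% of all genes were, and 6 in ovary, where 27.3% were. With each library scaled to its total, 2 were higher in fat body and 5 in ovary, 0 were lower in either, and their median log2 fold change was 0.20 in fat body and 0.07 in ovary, where the median of all genes moved to −0.02 and −0.32. Their median log2 level was 0.07, 0.31 and −0.04 in OA fat bodies, against −0.10, −0.24 and −0.01 in OI fat bodies. In ovary it was −0.03, −0.06 and 0.66 in OA, against −0.20, −0.07 and −0.36 in OI. The library with the highest ribosomal level in ovary, the third OA ovary, was the one with the lowest member level. It had about 23308100 reads, among the fewest of the ovaries. The third OI ovary had the fewest, about 23118200, and the highest member level, at 0.70. The part of RNA makeup or quality in the members' values was not tested.

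**Figure D3:**
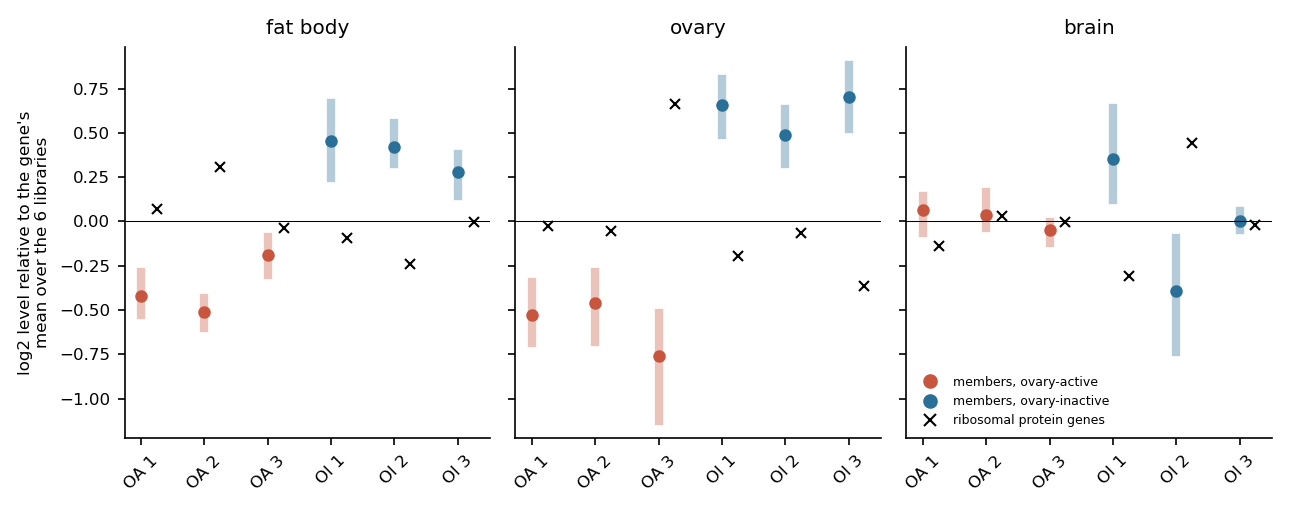
Median over the members (points, with bars for the interquartile range over genes) and over the named ribosomal protein genes (crosses) of the log2 level relative to each gene's mean over the 6 libraries of a tissue, for each ovary-active (OA, red) and ovary-inactive (OI, blue) replicate. In brain the members of the first OI library were at 0.35 and those of the second at −0.39, with the ribosomal genes on the opposite side in both.

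The brain libraries played no part in the rule, so the same comparison could be tested there. With limma, 0 of the 128 members with a mean of at least 10 were called at an adjusted p under 0.05 in either direction, where 0% of 9490 genes tested were called lower and 0.0211% higher, and the count was also 0 without the variance trend. At an unadjusted p under 0.05, 1 member was lower and 1 higher, where 0.706% of all genes were lower and 0.4% higher. Their median log2 fold change was 0.03, beside 0.01 over all genes tested. Below 0 were 47 of the 128, or 103 with each library scaled to its total, where the medians became −0.07 for members and −0.10 for all genes. No member thus passed the test in brain, and the median of the members lay close to that of all genes under both scalings.

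The 2 members with the lowest unadjusted p in brain were LOC100651433 and LOC100652108. LOC100651433 had 984, 1101 and 1207 normalized counts in OA brain and 1452, 1571 and 1202 in OI brain, with a log2 fold change of −0.36 (SE 0.13), and the groups touched (limma adjusted p = 0.9999). LOC100652108 had 735, 694 and 665 in OA brain and 629, 545 and 595 in OI brain, so all OA brains were higher, with a log2 fold change of 0.24 (SE 0.09, limma adjusted p = 0.9999). It was the single member higher with no overlap in brain, where 1.89% of all genes were. Another 3 members were lower with no overlap, where 2.79% of all genes were, and they were LOC100648245, LOC100648204 and LOC100651675. LOC100648245 had 6290.4, 6169 and 6665 normalized counts in OA brain and 6891, 6790.2 and 7015 in OI brain, a small step. The counts of 1 and 3 among 129 are near those shares.

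RNA-binding protein 38 had the largest brain fold change of the set and no call. It had 76.8, 305 and 3.07 normalized counts in OA brain and 9.94, 11.4 and 2.91 in OI brain, a log2 fold change of 2.50 (SE 1.53, limma adjusted p = 0.9999). The second OA brain was far above the rest, the third OA brain was as low as the lowest OI brain, and the groups overlapped. Myosin-IB was also highest in the second OA brain, with 410.3, 1183 and 463 normalized counts in OA brain and 459, 472 and 413 in OI brain.

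Within brain, the members differed more between libraries of one phenotype. The first OI brain was the highest of the OI brains in 103 of 129 members (79.8%, against 42.2% of all genes), and the second was the lowest in 101 (78.3%, against 43.6%). The log2 ratio of the first to the second OI brain had a median of 0.73 over members and −0.04 over genes with a fat body mean of at least 100, and it was above 0 in 107 of 128 members. In 53 of 128 members (41.4%) the first held more than 2 times the value of the second, as it did in 8.68% of all genes tested. The OA brains, by contrast, had member medians of 0.07, 0.04 and −0.05, and the third OI brain was at 0.00.

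Examples of this pattern, chosen after their values were seen, include some of the regulators above. PRRC2C had 9920.0, 9846 and 9373 normalized counts in OA brains and 17658, 4108 and 10392 in OI brains. Enhancer of polycomb homolog 1 had 456, 502 and 404 in OA brains and 856, 168 and 486 in OI brains. Nipped-B-like protein had 697, 745 and 582 in OA brains and 1094, 281 and 637 in OI brains. In each the OA brains and the third OI brain were close together and the other OI brains lay above and below them. LOC100650745, LOC100644429 and LOC100649911, which were among the named members with the largest ratios, ran the other way, with log2 ratios of the first to the second OI brain of −0.48, −1.02 and −0.51.

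The same 2 libraries also separated the comparison genes, in unequal measure. The median log2 ratio of the first to the second OI brain was 1.40 in the 39 genes above the ovary ceiling, 0.36 in the 1209 genes that met the ovary criteria but not those of fat body, and 0.21 in the 156 that met the fat body criteria but not those of ovary. It was −0.74 in the named ribosomal protein genes, with 0 of 21 above 0. Across 7270 genes with a fat body mean of at least 100 that were tested in all 3 tissues, this ratio had a Spearman correlation of −0.51 with the fat body log2 fold change and −0.49 with the ovary one (Pearson −0.35 and −0.41). Genes within a library share its depth and RNA makeup and are not independent, so these correlations are a description. Among the 127 members with all 3 values the Spearman correlations were 0.18 and −0.21, over the narrow range the rule leaves.

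Leaving out either OI brain changed the members' median. Without the first OI brain the median log2 fold change in brain was 0.23, and without the second it was −0.19. The count of members called stayed at 0 in both cases. In reads, estimated from the value that 1 read takes in each library, the first had about 25180800 and the second about 28508800. Because 2 of the 3 OI brain libraries are the joined pool and the pool from later colonies, at least 1 of the first and second OI brains is one of these, and the sources used here do not say which. The part of pool makeup, RNA quality, colony or read depth in this pattern was not tested.

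**Figure D4:**
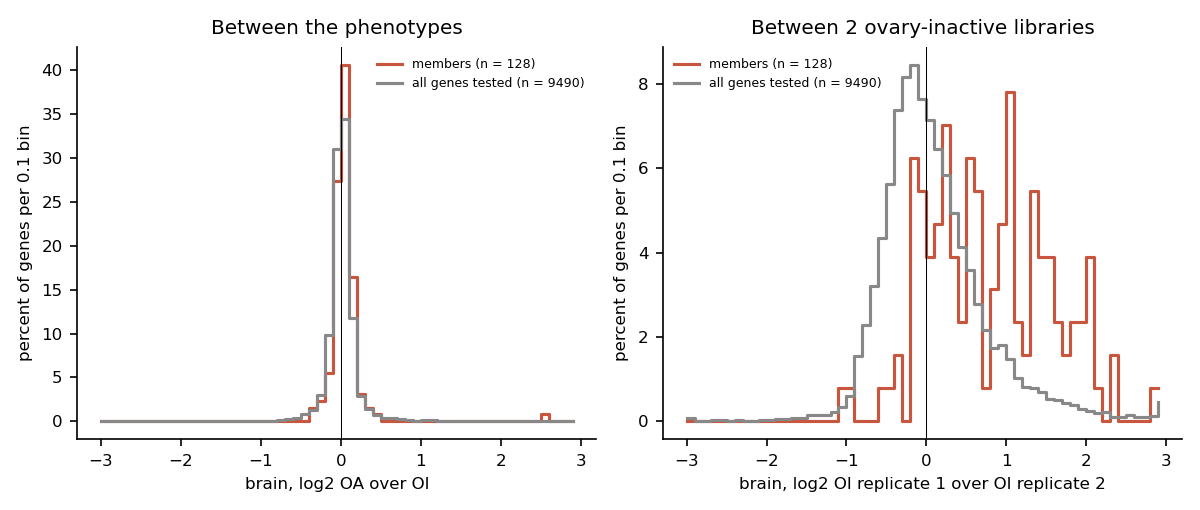
Share of genes in bins of 0.1 for members (red, 128 genes) and all genes tested in brain (grey, 9490 genes), by the log2 fold change of OA over OI (left) and by the log2 ratio of the first to the second OI library (right); values past 3 are drawn in the end bins. On the left both distributions centre near 0, with medians of 0.03 and 0.01, and on the right the members are shifted to a median of 0.73.

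Worker-laid eggs did not take part in the rule either. A gene counted as expressed in eggs when its zFPKM, a z score of log2 expression against the main peak of active genes, was over −3 in both egg libraries. That threshold corresponded to 59.2 and 52.2 estimated counts in the first and second library. By this measure 101 of the 129 genes (78.3%) were expressed in eggs, where 80.2% of all 9564 genes and 90.5% of those with a fat body mean of at least 100 were. The share was 64.7% among the genes that met only the fat body criteria and 88.8% among those that met only the ovary criteria, so the set stood between them. No test of these shares was made, because the eggs have no groups and the sets were chosen on measured values.

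The egg libraries disagreed on some members in one direction. Over −3 in the first library alone were 16 members, and 0 in the second alone, while 12 were under it in both. At 0 in the second library were 4 members, which were LOC100644429, LOC100644923, LOC100645194 and LOC100649911, with 98.3, 150.4, 27.1 and 24.7 estimated counts in the first. The first 2 of these were the most abundant members in fat body. No member was at 0 in both.

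The 6 highest members in eggs had no product name here. LOC100650602 had 15166 and 18467 estimated counts in the 2 egg libraries, and in OA ovary it had 4677, 5086 and 1647 normalized counts, against 10056, 10269 and 9129.9 in OI ovary. LOC100651517, LOC100649031, LOC100645325, LOC100647509 and LOC100649770 followed, the last of these with 6216 and 5981. Cyclin-dependent kinase inhibitor 1 had 5131 and 5121 and ARID2 had 4129 and 4335 estimated counts. Tensin-1 had 414 and 215, and zinc finger protein 1 had 58.4 and 9.31, under the threshold in both libraries. Eggs were sequenced separately and in another unit, so egg and tissue levels are set side by side only.

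**Figure D5:**
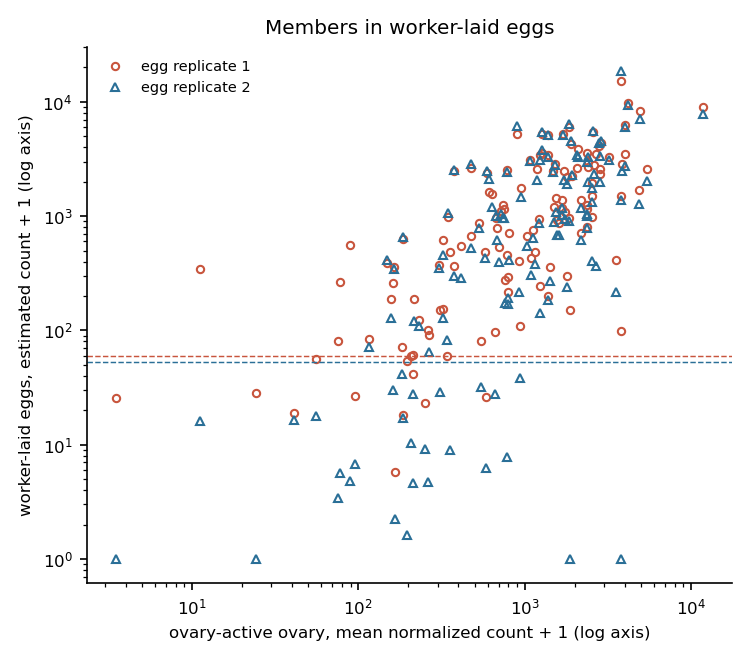
Estimated count + 1 of each member in the first (red circles) and second (blue triangles) egg library against its mean normalized count + 1 in ovary-active ovary, on log axes; dashed lines mark the expression threshold of 59.2 and 52.2 estimated counts. Most members lie above both lines, and the 4 triangles at the bottom are the members at 0 in the second library.

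The fits across all genes used the same values that chose the members, so their counts describe the choice and nothing is read from them. In these, 57 of 129 members were called lower in OA fat body at an adjusted p under 0.05, where 1.97% of genes were. In ovary 126 of 128 tested were called lower, where 26.7% of genes were, and the 57 were called in both tissues. The fat body count depended on single libraries and on the fit. It was 6 with the replicate number as a block, 5 without the first or without the second OA fat body, 9 without the second OI fat body, 40 without the first OI fat body, and 79 and 78 without the third OA or the third OI fat body. The ovary count stayed between 106 and 124 in the same exercise. Median log2 fold changes of the members moved less, between −0.81 and −0.65 in fat body and between −1.30 and −1.05 in ovary.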

How the data were processed

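Messenger RNA was measured in 18 tissue libraries and 2 egg libraries. The authors ran kallisto 0.46.1 against transcripts of the Bter_1.0 build and summed the result to genes with tximport. What they deposited for the tissues is a signal: the estimated counts of each gene, normalized by the authors within a tissue with DESeq2 1.34.0 factors. For the eggs they deposited estimated counts with no normalization. Of the tissue values 59.8% to 60.7% per library were whole multiples of the value of 1 read (tolerance 0.02), and 100% in the third OI brain, so whole reads were not at hand and no count model was run.

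The 129 genes were found by the rule in Python 3.11.15 with pandas 2.3.3 and numpy 2.4.6. Phenotypes were compared within each tissue with limma 3.58.1 in R 4.3.3, with a variance trend, on log2(normalized count + 1), for genes whose mean reached 10, 2-sided with Benjamini-Hochberg adjustment over all genes of the table and a threshold of 0.05. The script was tested on simulated data. Members and gene lists were chosen with earlier results of these data known. Genes named were the 8 with the largest ratio in fat body and in ovary, the 8 with the highest fat body mean and the 6 with the lowest brain p. To these came the 6 highest in eggs, up to 3 of each list and the 3 on each side of a threshold. Members at 0 in both egg libraries were also to be named, and there were 0. The other members with a product name, the naming of members at 0 in the second egg library and the brain examples were added after their values were seen. The same holds for LOC100651675 and the neighbour genes. Product names came from the study's tables of gene names, of which only part was held, and their values were not used. Columns of the authors' own comparisons were not used. Alternatives were other pseudocounts (0.5 and 10), no filter, no variance trend, scaling to totals, a replicate block and leaving out each library. Sequences were not used here.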

Additional observations from a re-analysis of the deposited data

Results flagged for a closer look

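LOC100652108 was the single member with no overlap between phenotypes in brain in the direction opposite to fat body and ovary. All 3 OA brains were above all 3 OI brains, with a log2 fold change of 0.24 in brain, whereas all OA libraries were below all OI libraries in fat body and ovary by the choice of the members. This is 1 of 129 members, where 1.89% of all genes were higher in OA brain with no overlap, and the difference between the tissues was not tested.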

How the results depend on the processing

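Membership by the rule changed most with the fold threshold, and 8 genes remained at a ratio of at least 2 in both tissues. Leaving out 1 library gave 94 to 191 genes by the rule. The number of members called by limma in fat body was 57, and it was 7 without a variance trend, 6 with the replicate block, 92 with libraries scaled to their totals and 5 to 79 when 1 library was left out. The replicate block gave 0 members called in brain and 116 in ovary. Same-numbered OA and OI libraries did not deviate together (correlations of −0.22, −0.11 and 0.25 in brain, −0.24, 0.05 and −0.24 in fat body, and −0.06, 0.16 and −0.18 in ovary), so the numbers are not taken as pairs. The study matched OA and OI pools by worker age, but the labels do not tie those pools to the numbered libraries. In ovary 106 to 124 members were called when 1 library was left out, against 126. The median log2 fold change in brain was 0.03 and lay between −0.19 and 0.23 when 1 library was left out, the ends being without the second and without the first OI brain. With a zFPKM over 0 in both libraries, 18 members counted as expressed in eggs, where 32.6% of all genes did, and 101 to 117 did when 1 egg library was left out. Scaling to totals moved the ovary median over members to −1.59. Leaving out a library leaves fewer samples, and otherwise the cause was not tested. The brain median changed sign, to −0.19 without the second OI brain and to −0.07 with libraries scaled to totals. The fat body and ovary medians stayed negative under the same changes. At this depth 1 member in ovary and 1 in brain had a mean under 10 and could not be fitted, and colonies were not modelled.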

Other observations

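The members that are direct neighbours in the order of protein-coding genes of the assembly iyBomTerr1.2 gave 3 pairs, none of which was compared above as a pair. LOC100652108, next to split ends, had 1667, 1783 and 2539 normalized counts in OA fat body and 3332, 3117 and 3009 in OI fat body, and in ovary 724, 915 and 761 in OA and 1989, 1816 and 1158 in OI. Both genes of this pair fell to a similar degree in fat body (OI over OA ratios of 1.58 for LOC100652108 and 1.55 for split ends, LOC100642196), and split ends had the larger ovary ratio (3.004 for LOC100642196, against 2.07 for LOC100652108).

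LOC100644762 had 548, 504 and 783 normalized counts in OA fat body and 1326, 995 and 948 in OI fat body, and its neighbour LOC100644889 had 607, 534 and 767 in OA and 1063, 986 and 973 in OI. Their ovary ratios were 2.25 for LOC100644762 and 1.78 for LOC100644889. In the last pair LOC100645196 had a fat body ratio of 1.69 and an ovary ratio of 1.82, and LOC100645325 had 1.53 and 1.68. Whether neighbours belonged to the set together more often than other genes was not tested.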
